A study of Mus musculus with 11 samples.

Results

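SLC35 proteins carry activated sugars, or the activated sulfate PAPS, from the cytosol into the lumen of the Golgi and endoplasmic reticulum. Transcripts of SLC35 genes were measured here, and what Slc35a4 and Slc35a5 carry is less settled. The genes are 10 of the 909 that could be named on a custom mouse glycan gene chip. They are Slc35a1, Slc35a2, Slc35a3, Slc35a4, Slc35a5, Slc35b3, Slc35b4, Slc35c1, Slc35d1 and Slc35d2. Each was found through the RefSeq transcript in its probe set ID, and all 10 have at least 1 probe set. Slc35a2 alone has more than 1, and the brighter was used unless the other is named. The label "Golgi nucleotide-sugar transporters" holds only in part, because Slc35b3 carries a nucleotide sulfate and Slc35d1 is best known from the endoplasmic reticulum.

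Spleen CD4+ T cells of female C57BL/6 mice, with no allele or treatment named, were separated by flow sorting. Cells positive for CD25 and low for CD45RB carry the label Treg (n = 3, replicates 1, 2 and 4). CD25- cells low for CD45RB are labelled activated or memory (CD45RBlow below, n = 4), and CD25- cells high for CD45RB are labelled naive (CD45RBhigh below, n = 4). CD25 helps to bind interleukin-2, and CD45RB marks a splice form of the phosphatase CD45. The CD25- samples are from mice of 4 to 6 weeks and the Treg labels give no age, so age and population cannot be told apart in comparisons with Treg cells. No label says whether replicates were separate animals or pools, so p-values measure the spread between samples. With 11 arrays, the number of arrays limits the precision.

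Nucleotide sugars are made in the cytosol or nucleus, whereas most glycosyltransferases act inside the secretory pathway. SLC35 transporters exchange the charged donor for the spent nucleoside monophosphate and so feed each kind of glycan chain. In T cells the chains made from these donors include sialylated and fucosylated selectin ligands, branched N-glycans that bind galectins, and sulfated glycosaminoglycans.

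Array medians lay between 4.85 and 4.94 on the log2 scale of Robust Multichip Average (RMA). Of 11 Treg markers 7 were measured, and all 7 were higher in Treg than in both CD25- populations. Among them Il2ra encodes CD25, by which the cells were sorted, so its rise follows from the sort. All 5 naive markers were lower in CD45RBlow than in CD45RBhigh cells, and all 7 activation markers were higher. The 7 Treg markers were also all higher in CD45RBlow than in CD45RBhigh cells, with Cd83 higher by 3.08 and Il2ra by 2.10 (log2). Their mean log2 level was 9.002 to 9.44 in Treg arrays, 6.37 to 7.16 in CD45RBlow arrays and 4.68 to 4.93 in CD45RBhigh arrays. The marker lists were chosen with earlier results of these data known, so they are no independent check of cell identity. Foxp3 and Cd4 were not analysed here. Of 6 natural killer and CD8+ T cell markers 2 were measured, with a mean log2 level of 3.81 to 4.21 in Treg, 6.45 to 7.01 in CD45RBlow and 6.62 to 7.04 in CD45RBhigh arrays. Klrd1 averaged 3.93 ± 0.47 in Treg cells (SD, n = 3), 8.28 ± 0.22 in CD45RBlow and 9.22 ± 0.21 in CD45RBhigh cells (SD, n = 4 each). Klrc1 averaged 4.20 ± 0.016, 5.20 ± 0.27 and 4.61 ± 0.24 in the same order, so between CD45RBlow and CD45RBhigh cells Klrd1 fell (-0.94) and Klrc1 rose (0.59). Of 4 B cell markers 2 were measured, with a mean level of 7.24 to 7.40 in Treg, 6.82 to 7.19 in CD45RBlow and 6.78 to 6.96 in CD45RBhigh arrays. They too went opposite ways, since in Treg against CD45RBlow cells Cd72 rose (0.85) and Cd22 fell (-0.30). Against CD45RBhigh cells both rose in Treg cells, by 0.54 and 0.29, and Cd22 rose in CD45RBlow cells by 0.59. The part of such cells in the differences below was not tested. Over 4 of 6 myeloid markers it was 4.11 to 4.20 in Treg, 4.02 to 4.20 in CD45RBlow and 4.07 to 4.15 in CD45RBhigh arrays, and 0 of these 4 passed in any comparison.

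In Treg against CD45RBhigh cells 1 of the 10 transporter genes rose, Slc35d1, and 2 fell, Slc35a5 and Slc35b3, at an adjusted p under 0.05 in limma. The share passing among all 1246 probe sets was 18.9% there (10.3% upward and 8.59% downward). In Treg against CD45RBlow cells Slc35d1 rose and 0 fell (1 of 10), beside 12.5% of all probe sets (6.74% upward and 5.78% downward), and limma with an unadjusted p under 0.05 gave the same counts. In CD45RBlow against CD45RBhigh cells Slc35a5 fell and 0 rose (1 of 10), beside 12.6% of all probe sets (7.62% upward and 4.98% downward). There, an unadjusted p under 0.05 gave 0 upward and 2 downward. The share of all probe sets at an unadjusted p was not computed, so the unadjusted counts have no background beside them. Arrays of the groups did not overlap for 2, 1 and 1 of the 10 genes in these comparisons, beside 25.0%, 21.3% and 17.8% of all probe sets. Blocking on the replicate number gave 3, 1 and 2 of the 10, beside 26.5%, 19.7% and 21.7% of all probe sets, and upward calls in Treg against CD45RBlow cells were 1 of 10 beside 8.99%. The median log2 fold change of the 10 genes was -0.14, -0.03 and -0.13 in these comparisons, beside -0.04, 0.04 and -0.08 over all probe sets. The comparisons share arrays and are not independent of each other.

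**Figure D1:**
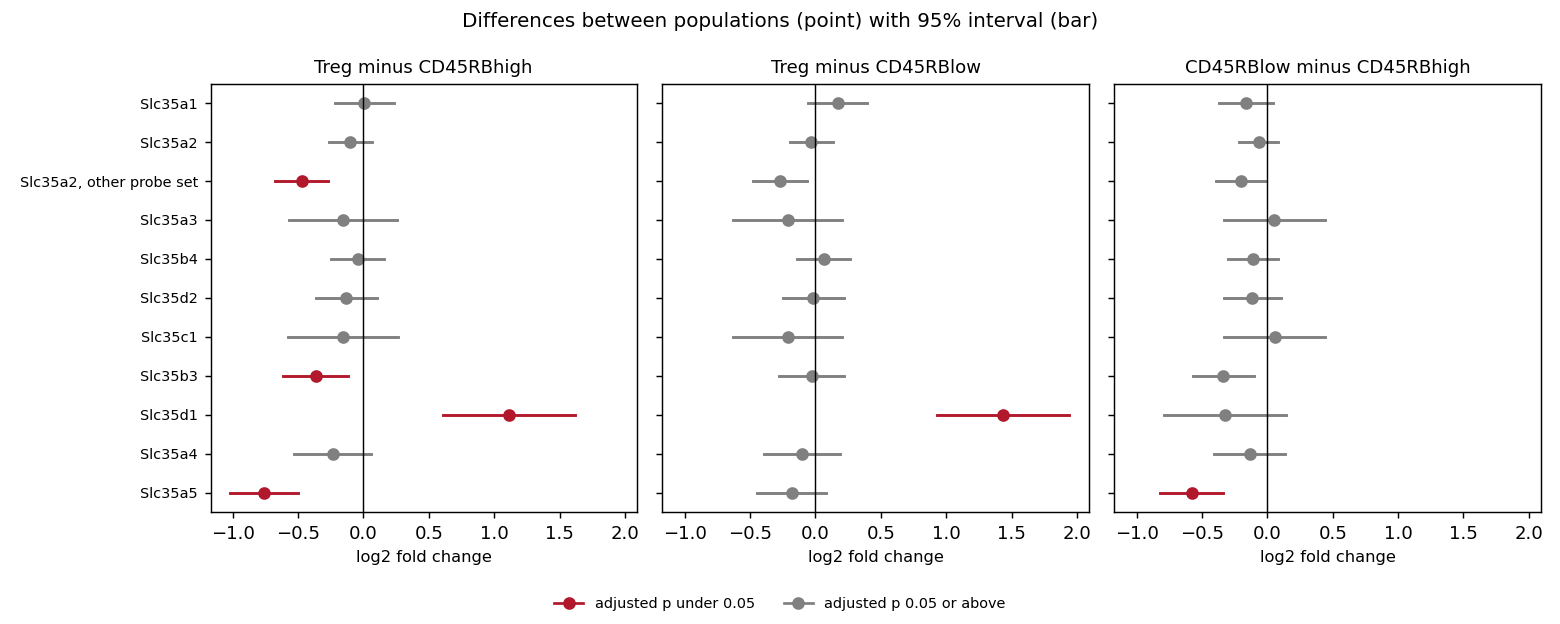
Log2 fold changes (points) with 95% intervals (bars) of the 10 transporter genes, and of the other Slc35a2 probe set, in the 3 comparisons; red marks an adjusted p under 0.05. Slc35d1 stands at 1.12 and 1.44 in the comparisons with Treg cells, and Slc35a5 at -0.76 and -0.58 in those with CD45RBhigh cells.

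Promoter sequences of the 3 genes that passed are shown because Slc35d1 went one way and Slc35a5 and Slc35b3 the other. They are from RefSeq on build GRCm38.p6, hold 250 bases before and 50 after a transcript start, and run 5′ to 3′ on the minus strand. Slc35b3 has 2 annotated starts. Capitals mark the GC box (GGGCGG), the CCAAT box (CCAAT) and an ETS motif (CCGGAAG), each on either strand.
Slc35d1, chr4:103215127-103215426: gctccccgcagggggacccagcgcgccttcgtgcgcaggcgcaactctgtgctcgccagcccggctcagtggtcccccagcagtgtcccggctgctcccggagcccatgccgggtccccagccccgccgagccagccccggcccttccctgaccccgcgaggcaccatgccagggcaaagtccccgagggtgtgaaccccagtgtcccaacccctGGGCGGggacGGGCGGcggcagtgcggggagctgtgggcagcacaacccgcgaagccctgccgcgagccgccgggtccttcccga
Slc35a5, chr16:45158624-45158923: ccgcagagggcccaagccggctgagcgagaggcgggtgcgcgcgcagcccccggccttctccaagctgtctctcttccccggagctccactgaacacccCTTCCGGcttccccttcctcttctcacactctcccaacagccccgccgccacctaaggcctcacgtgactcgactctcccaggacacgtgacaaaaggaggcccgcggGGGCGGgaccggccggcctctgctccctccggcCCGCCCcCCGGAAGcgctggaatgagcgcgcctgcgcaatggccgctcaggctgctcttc
Slc35b3, chr13:38960488-38960787: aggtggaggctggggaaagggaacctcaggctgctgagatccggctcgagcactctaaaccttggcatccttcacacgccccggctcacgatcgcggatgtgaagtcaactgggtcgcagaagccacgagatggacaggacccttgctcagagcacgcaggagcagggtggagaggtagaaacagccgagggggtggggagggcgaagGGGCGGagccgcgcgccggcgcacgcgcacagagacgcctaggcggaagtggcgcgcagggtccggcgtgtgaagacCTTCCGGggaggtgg
Slc35b3, chr13:38960830-38961129: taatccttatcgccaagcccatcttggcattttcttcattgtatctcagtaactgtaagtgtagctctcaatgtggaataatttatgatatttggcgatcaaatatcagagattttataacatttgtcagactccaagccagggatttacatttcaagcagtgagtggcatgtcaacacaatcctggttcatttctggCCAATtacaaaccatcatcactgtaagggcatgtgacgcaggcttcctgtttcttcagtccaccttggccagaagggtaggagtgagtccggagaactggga

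The Slc35d1 window is 75.3% G and C with 29 CpG, and the Slc35a5 window 70.3% with 28 CpG. The Slc35b3 windows differ from each other, at 66.3% with 27 CpG and 42.7% with 4 CpG. Over 32851 mouse windows of that length the medians are 52.7% and 7 CpG. GC boxes occur in 35.7% of all windows, and there are 2 in Slc35d1, 2 in Slc35a5 and 1 in the first Slc35b3 window. The ETS motif, in 8.86% of all windows, occurs 2 times in Slc35a5, once in the first Slc35b3 window and not in the Slc35d1 window. It is also in the window of Slc35a1 and in a window of Slc35c1, which did not pass in any comparison. Whether a motif goes with the direction of a change was not tested. The second Slc35b3 window holds a CCAAT box, found in 37.4% of windows. Among the 8 transporter genes with a window, 4 have the ETS motif, 6 a GC box and 2 a CCAAT box in at least 1 window. These and the next counts are per gene over 10 windows, whereas the shares are per window. Shares for windows of like G and C content were not computed. The forkhead motif TGTTTAC, in 3.65% of all windows, and the cyclic AMP response element TGACGTCA, in 1.79%, are in the windows of 0 of the 8. A TATA box (TATAAA, 13.6% of windows) is in the windows of 2 and an E-box (CACGTG, 7.15%) in 1. None of the matches in these windows overlap.

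Slc35d1 moves UDP-glucuronic acid and UDP-N-acetylgalactosamine, the building blocks of chondroitin sulfate, and mice without it make too little chondroitin sulfate in cartilage. Its log2 values were 7.03, 6.88 and 6.77 in Treg arrays, 5.44, 5.51, 5.23 and 5.65 in CD45RBlow arrays, and 5.41, 5.61, 5.54 and 6.55 in CD45RBhigh arrays. Every Treg array lay above every CD25- array, and CD45RBhigh replicate 4 stood between the Treg arrays and the rest. Slc35d1 averaged 6.90 ± 0.13 in Treg cells (SD, n = 3), 5.46 ± 0.17 in CD45RBlow cells and 5.78 ± 0.52 in CD45RBhigh cells (SD, n = 4 each). It was 2.71-fold higher in Treg than in CD45RBlow cells (log2 fold change 1.44, SE 0.23, adjusted p = 0.00132). Against CD45RBhigh cells it was 2.17-fold higher (log2 fold change 1.12, SE 0.23, adjusted p = 0.00529), with a 95% interval of 0.61 to 1.62. Between CD45RBlow and CD45RBhigh cells the difference of -0.32 (SE 0.21) did not pass, with an interval of -0.79 to 0.15. In bulk RNA, fewer cells with a transcript and less transcript per cell cannot be told apart, here and below.

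CD45RBhigh replicate 4 bears on the size of the Slc35d1 difference. Without that array the value against CD45RBhigh cells was 1.37 (adjusted p = 1.04e-05), and the difference between CD45RBlow and CD45RBhigh cells was -0.06. Within replicates 1 and 2 Slc35d1 was higher in Treg than in CD45RBhigh cells by 1.45 (adjusted p = 9.11e-05). Within replicates 3 and 4, which hold 1 Treg array and CD45RBhigh replicate 4, the difference was 0.72 and did not pass (adjusted p = 0.458). Against CD45RBlow cells the values within the same replicate sets were 1.48 and 1.33, with adjusted p = 0.000115 and 0.244. The mean log2 level over the 7 Treg markers was between 4.68 and 4.93 in all 4 CD45RBhigh arrays and 9.002 to 9.44 in Treg arrays. The markers were split in CD45RBhigh replicate 4. Il2ra, Ccr8 and Il1rl1 were highest of the CD45RBhigh arrays there (4.45, 4.62 and 4.57). Itgae, Klrg1, Il10 and Cd83 were lowest there (5.04, 5.01, 4.95 and 4.78). Il2ra, which encodes CD25, read 9.69 to 10.02 in Treg arrays, and 4.45 in this array against 3.85 to 4.10 in the other CD45RBhigh arrays. The cause of the Slc35d1 reading in this array was not tested.

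**Figure D2:**
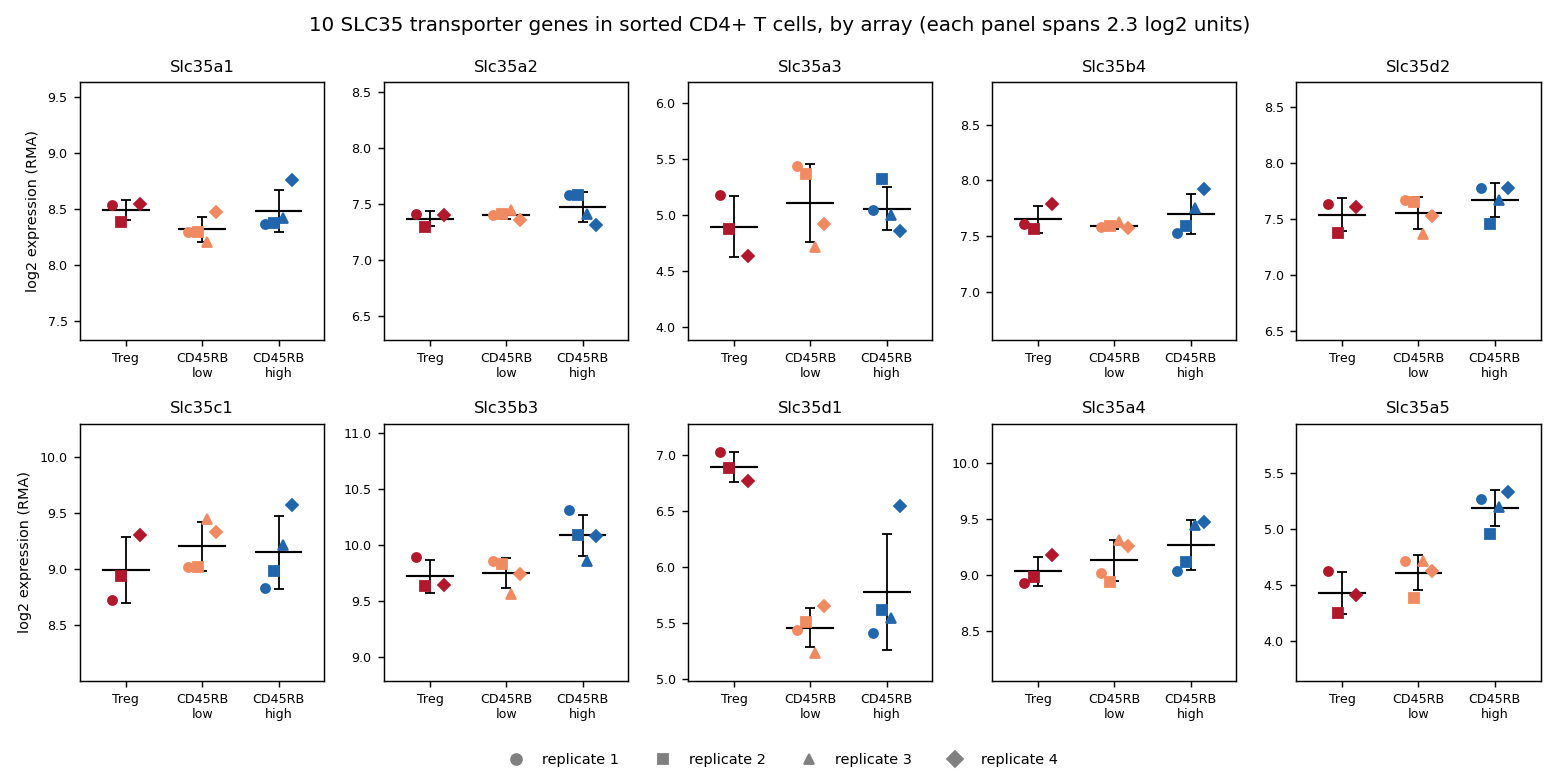
Log2 expression of each transporter gene on every array, by population (Treg, CD45RBlow, CD45RBhigh from left to right); symbols mark the replicate number, horizontal lines the mean and bars the SD. Treg arrays lie apart from both other populations for Slc35d1 (6.77 to 7.03), and CD45RBhigh arrays lie apart for Slc35a5 (4.96 to 5.34).

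Slc35a5 belongs to the subfamily of the sialic acid and galactose transporters, and what it carries is less settled. It read 4.63, 4.25 and 4.41 in Treg cells, and in CD45RBlow cells it read 4.72, 4.39, 4.72 and 4.62. In CD45RBhigh cells it read 5.27, 4.96, 5.20 and 5.34. The CD45RBhigh arrays did not overlap with either other population, while Treg and CD45RBlow arrays overlapped. Means were 4.43 ± 0.19 in Treg (SD, n = 3), 4.61 ± 0.16 in CD45RBlow and 5.19 ± 0.16 in CD45RBhigh cells (SD, n = 4 each). Slc35a5 was 1.69-fold lower in Treg than in CD45RBhigh cells (log2 fold change -0.76, SE 0.12, adjusted p = 0.000723) and 1.49-fold lower in CD45RBlow than in CD45RBhigh cells (-0.58, SE 0.11, adjusted p = 0.00452). Between Treg and CD45RBlow cells it differed by -0.18 (SE 0.12, adjusted p = 0.426), with an interval of -0.44 to 0.08.

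Within replicates 1 and 2 and within 3 and 4 Slc35a5 differed between Treg and CD45RBhigh cells by -0.68 and -0.85. The first passed in limma with 2 arrays in each population (adjusted p = 0.0388). The second rests on 1 Treg array and so holds no spread between Treg arrays. Between CD45RBlow and CD45RBhigh cells it differed by -0.56 and -0.60 in these sets, and only the second passed (adjusted p = 0.0777 and 0.0426). The readings lie above 3.64, the first quartile of all values, but the table has no detection call, and signal near background would make these folds too small.

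Slc35b3 carries PAPS, the sulfate donor of Golgi sulfotransferases. Its values were 9.89, 9.63 and 9.64 in Treg arrays, 9.86, 9.83, 9.56 and 9.74 in CD45RBlow arrays, and 10.31, 10.09, 9.86 and 10.08 in CD45RBhigh arrays. Treg replicate 1 and CD45RBlow replicate 1 reached the lowest CD45RBhigh array, replicate 3, so the groups touched or overlapped in each comparison. The Treg mean was 9.72 ± 0.15 (SD, n = 3), against 9.75 ± 0.13 in CD45RBlow and 10.1 ± 0.19 in CD45RBhigh cells (SD, n = 4 each). Slc35b3 was 1.29-fold lower in Treg than in CD45RBhigh cells (log2 fold change -0.37, SE 0.11, adjusted p = 0.0458). That call ended in 12 of 22 alternatives, 8 of them the removal of 1 array, such as Treg replicate 2 (-0.32, adjusted p = 0.161) or CD45RBhigh replicate 1 (-0.29, adjusted p = 0.105). After a further quantile normalization the difference was -0.26 (adjusted p = 0.156). In the fit with the replicate number as a block it was -0.43 (SE 0.07, adjusted p = 0.000734).

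Between CD45RBlow and CD45RBhigh cells Slc35b3 differed by -0.34 (SE 0.10) and did not pass (adjusted p = 0.0612), whereas with the replicate block it passed (SE 0.06, adjusted p = 0.00278). With the block the count that fell in this comparison was 2 of 10, beside 11.7% of all probe sets. Inside replicates 1 and 2 and inside 3 and 4 the Treg difference was -0.44 and -0.33 (adjusted p = 0.0397 and 0.297), and the CD45RBlow difference -0.35 and -0.32 (adjusted p = 0.0847 and 0.278), each against CD45RBhigh cells.

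Slc35a1 carries CMP-sialic acid, the donor of every sialyltransferase, and it was not called in any comparison. It read 8.54, 8.38 and 8.54 in Treg arrays, 8.29, 8.29, 8.20 and 8.47 in CD45RBlow arrays, and 8.36, 8.37, 8.42 and 8.76 in CD45RBhigh arrays. The populations overlapped in each comparison. Against CD45RBhigh cells the Treg difference had an interval of -0.22 to 0.23, and against CD45RBlow cells -0.06 to 0.40 (log2). Of 4 measured enzymes that make or modify its cargo, 2 fell in Treg cells against each CD25- population and 0 rose. The downward share of all probe sets was 8.59% against CD45RBhigh and 5.78% against CD45RBlow cells. The 2 enzymes were Cmas, which joins sialic acid to CMP, and Cmah, which converts CMP-Neu5Ac to the Neu5Gc form in mice. Gne and Nans, which act earlier in sialic acid synthesis, differed by -0.04 and 0.09 from CD45RBhigh and by 0.12 and 0.12 from CD45RBlow cells and did not pass. Cmas was lower in Treg than in CD45RBhigh cells by -0.41 (SE 0.08, adjusted p = 0.00238) and than in CD45RBlow cells by -0.30 (SE 0.08, adjusted p = 0.0228). The second of these calls ended in 8 of 22 alternatives, 4 of them the removal of Treg replicate 2 or 4 or CD45RBlow replicate 1 or 4 (adjusted p = 0.0892, 0.0650, 0.0510 and 0.0554). After a further quantile normalization it was -0.15 (adjusted p = 0.110). Cmah differed by -1.37 (SE 0.14, adjusted p = 2.79e-05) and by -0.71 (SE 0.14, adjusted p = 0.00584) in these comparisons, and by -0.65 (SE 0.13, adjusted p = 0.00624) between CD45RBlow and CD45RBhigh cells. Each of these Cmah calls ended in 1 of 22 alternatives, within replicates 3 and 4 (adjusted p = 0.0572, 0.168 and 0.367). Its probe set has the suffix s, which marks probes that can match several transcripts.

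Slc35a2 carries UDP-galactose, and its 2 probe sets gave different results. The brighter one, whose suffix a marks a match to several transcripts of a gene, read 7.41, 7.29 and 7.40 in Treg arrays, 7.40, 7.41, 7.44 and 7.36 in CD45RBlow arrays, and 7.58, 7.58, 7.41 and 7.31 in CD45RBhigh arrays. These overlapped, and the Treg difference from CD45RBhigh cells was -0.10 (SE 0.07, adjusted p = 0.450). The other, named for transcript NM_001083937, read 6.96, 6.66 and 6.56 in Treg arrays, 7.09, 7.02, 6.89 and 6.99 in CD45RBlow arrays, and 7.24, 7.11, 7.27 and 7.19 in CD45RBhigh arrays. All Treg and all CD45RBlow arrays lay below all CD45RBhigh arrays on this probe set. It fell by 0.47 in Treg against CD45RBhigh cells (SE 0.09, adjusted p = 0.00405), which makes 4 of 10 genes called if it stands for Slc35a2. Against CD45RBlow cells it differed by -0.27 (SE 0.09, adjusted p = 0.0929), and with the replicate block this passed (-0.28, adjusted p = 0.0456).

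**Figure D3:**
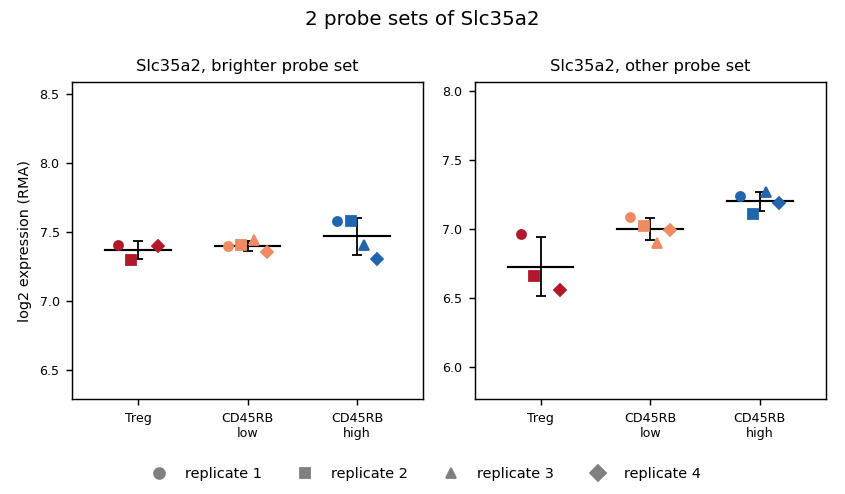
Log2 expression of Slc35a2 on each array by its brighter probe set (left) and its other probe set (right), for Treg, CD45RBlow and CD45RBhigh arrays; symbols mark the replicate number, lines the mean and bars the SD. On the brighter probe set the populations overlap, and on the other all 4 CD45RBhigh arrays (7.11 to 7.27) lie above the rest.

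Slc35a3, Slc35b4 and Slc35d2 carry UDP-N-acetylglucosamine, which feeds N-glycan branching. Slc35a3 is the classical carrier, Slc35b4 also takes UDP-xylose, and Slc35d2 takes further sugar nucleotides. None of them passed in any comparison: at an unadjusted p under 0.05 limma called 0 of the 3, and the replicate block called 0 as well. Slc35a3 read 5.18, 4.88 and 4.63 in Treg arrays, 5.44, 5.36, 4.71 and 4.92 in CD45RBlow arrays, and 5.04, 5.32, 4.999 and 4.86 in CD45RBhigh arrays. Its range from lowest to highest array inside each population was wider than its differences between population means, and its probe set has the suffix s. Slc35b4 lay between 7.57 and 7.79 in Treg, 7.57 and 7.63 in CD45RBlow, and 7.53 and 7.92 in CD45RBhigh arrays. Slc35d2 lay between 7.37 and 7.63 in Treg, 7.37 and 7.67 in CD45RBlow, and 7.45 and 7.77 in CD45RBhigh arrays. The intervals of the Treg difference from CD45RBhigh cells were -0.57 to 0.26 for Slc35a3, -0.25 to 0.16 for Slc35b4 and -0.36 to 0.10 for Slc35d2.

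Slc35c1 carries GDP-fucose, and people who lack it cannot make fucosylated selectin ligands on leukocytes. It read 8.73, 8.94 and 9.31 in Treg arrays, 9.02, 9.02, 9.45 and 9.34 in CD45RBlow arrays, and 8.83, 8.98, 9.21 and 9.58 in CD45RBhigh arrays. Each population spanned much the same range, and none of the comparisons passed. The Treg difference was -0.16 (SE 0.19, interval -0.58 to 0.26) from CD45RBhigh and -0.21 (SE 0.19, interval -0.63 to 0.21) from CD45RBlow cells. With the replicate block the SE fell to 0.09 and the adjusted p was 0.511 and 0.291. Of 3 measured genes that make GDP-fucose, Gfus and Fpgt did not pass in Treg cells. They differed by -0.09 and -0.26 from CD45RBhigh and by 0.14 and 0.02 from CD45RBlow cells. Gmds, the first enzyme from GDP-mannose to GDP-fucose, rose in Treg cells, to 7.20 ± 0.12 (SD, n = 3), against 6.79 ± 0.05 in CD45RBlow and 6.70 ± 0.12 in CD45RBhigh cells (SD, n = 4 each). The log2 fold changes were 0.40 (SE 0.08, adjusted p = 0.00643) and 0.49 (SE 0.08, adjusted p = 0.00103). Each call ended in 1 of 22 alternatives, within replicates 3 and 4 (adjusted p = 0.151 and 0.135).

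Slc35a4 is a further member of the A subfamily with a less settled cargo. It read 8.93, 8.98 and 9.17 in Treg arrays, 9.01, 8.93, 9.31 and 9.26 in CD45RBlow arrays, and 9.03, 9.12, 9.44 and 9.47 in CD45RBhigh arrays. The populations overlapped. Its Treg difference from CD45RBhigh cells was -0.24 (SE 0.13, adjusted p = 0.280), and -0.18 (adjusted p = 0.0456) with the replicate set as a covariate.

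Replicates 1 and 2 stood apart from replicates 3 and 4 for several of these genes, in all populations alike. For Slc35c1 the mean of the later pair (replicate 4 alone in Treg) was above that of replicates 1 and 2 by 0.47 in Treg, 0.38 in CD45RBlow and 0.49 in CD45RBhigh arrays. Slc35a4 was likewise higher there by 0.22, 0.31 and 0.38, and Slc35a3 was lower, at -0.39, -0.58 and -0.25. For these 3 genes the 2 replicate sets did not overlap within any population, where the later Treg set is replicate 4 alone. The share of all probe sets that part in this way was not computed, so this count has no background beside it. Slc35b3 was lower in replicates 3 and 4 by -0.12, -0.19 and -0.23. No label says what the numbers stand for.

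**Figure D4:**
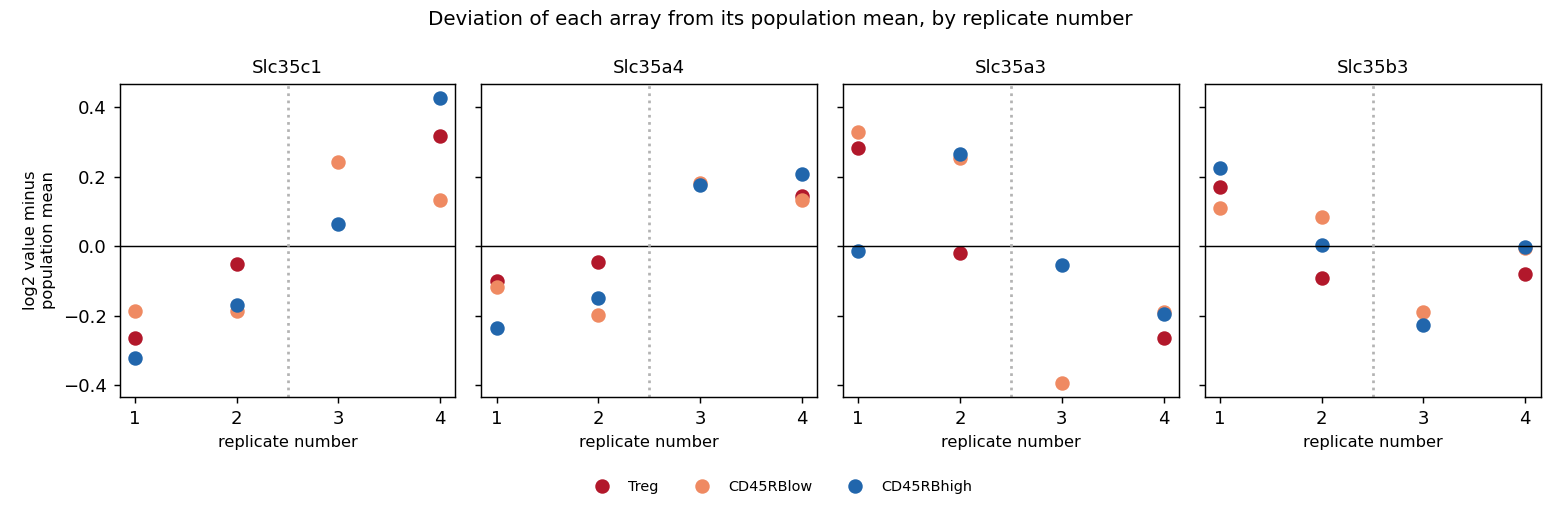
Log2 value of each array minus its population mean against the replicate number, for Slc35c1, Slc35a4, Slc35a3 and Slc35b3; colours mark Treg, CD45RBlow and CD45RBhigh arrays, and the dotted line parts replicates 1 and 2 from 3 and 4. Slc35c1 and Slc35a4 are above 0 in replicates 3 and 4 in every population, and Slc35a3 is below 0 there.

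The other genes of the donor pathway were read as a list of 38 gene names, of which 29 were measured. In Treg against CD45RBhigh cells 2 rose and 2 fell, in Treg against CD45RBlow cells 3 rose and 2 fell, and in CD45RBlow against CD45RBhigh cells 0 rose and 1 fell. Over all probe sets 18.9%, 12.5% and 12.6% passed. With the replicate block the list's counts were 4 and 4, 6 and 3, and 0 and 5, beside 26.5%, 19.7% and 21.7% of all probe sets. Without it, at an unadjusted p under 0.05, they were 6 and 4, 6 and 3, and 2 and 4, with no share of all probe sets computed at that cutoff. The list's median log2 fold change was 0.04, 0.09 and -0.10, beside -0.04, 0.04 and -0.08 over all probe sets. Besides Cmas, Cmah and Gmds the calls were Renbp and Gmppb. Renbp, an epimerase of N-acetylglucosamine, rose in Treg cells by 0.36 (SE 0.09, adjusted p = 0.0181) against CD45RBhigh and by 0.43 (SE 0.09, adjusted p = 0.00885) against CD45RBlow cells. The first of these ended in 3 of 22 alternatives, among them the removal of Treg replicate 4 (0.30, adjusted p = 0.0736) and a further quantile normalization (0.23, adjusted p = 0.141). The second ended in 2 of 22, within replicates 1 and 2 (0.26, adjusted p = 0.0795) and within 3 and 4 (0.67, adjusted p = 0.103). The Renbp probe set has the suffix s.

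Gmppb, a subunit of the enzyme that makes GDP-mannose, rose by 0.46 in Treg against CD45RBlow cells (SE 0.13, adjusted p = 0.0345). This call ended in 5 of 22 alternatives, 4 of them the removal of Treg replicate 2 or 4 or CD45RBlow replicate 1 or 2 (adjusted p = 0.104, 0.136, 0.101 and 0.0833). Against CD45RBhigh cells Gmppb differed by 0.35 (adjusted p = 0.0881), and by 0.40 with the replicate block, which passed (adjusted p = 0.00264). Ugdh, Papss1 and Papss2 were looked up after their values were seen, as the enzymes that make the donors of Slc35d1 and Slc35b3. Ugdh, which makes UDP-glucuronic acid, averaged 8.85 ± 0.26 in Treg (SD, n = 3), 8.75 ± 0.22 in CD45RBlow and 8.51 ± 0.14 in CD45RBhigh cells (SD, n = 4 each), and did not pass (0.33, SE 0.14, adjusted p = 0.146 for Treg against CD45RBhigh). Papss1, which makes PAPS, differed by 0.18 (SE 0.07, adjusted p = 0.0846) in the same comparison, and Papss2 by 0.09 (SE 0.06, adjusted p = 0.369). The Papss2 probe set has the suffix s.

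Of 14 further SLC35 genes 11 were measured. In Treg against CD45RBhigh cells 3 rose and 0 fell, Slc35e4, Slc35f5 and Slc35d3, and in Treg against CD45RBlow cells 2 rose and 0 fell, Slc35f5 and Slc35d3. The upward share of all probe sets was 10.3% and 6.74%, and 18.9% and 12.5% passed either way. At an unadjusted p under 0.05 the list's counts were 4 and 1, and 3 and 1, with no share of all probe sets computed at that cutoff. Between CD45RBlow and CD45RBhigh cells limma called 0, also at an unadjusted p under 0.05 and with the replicate block. The roles of Slc35e4 and Slc35f5 are less well known, and Slc35d3 is known in mice for platelet dense granules. Slc35e4, whose probe set has the suffix s, rose by 0.35 (SE 0.09, adjusted p = 0.0195) against CD45RBhigh cells. Against CD45RBlow cells it differed by 0.27 (adjusted p = 0.0871), and by 0.30 with the replicate block, which passed (adjusted p = 0.0431). The call against CD45RBhigh cells ended in 7 of 22 alternatives, 3 of them the removal of Treg replicate 2 or 4 or CD45RBhigh replicate 2 (adjusted p = 0.0556, 0.0724 and 0.0542). After a further quantile normalization it was 0.23 (adjusted p = 0.133).

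Slc35f5 rose by 0.32 (SE 0.09, adjusted p = 0.0318) against CD45RBhigh and by 0.31 (SE 0.09, adjusted p = 0.0484) against CD45RBlow cells. Without Treg replicate 1, its highest array at 4.66, these were 0.20 and 0.19 and did not pass (adjusted p = 0.103 and 0.152). In all, the call against CD45RBhigh cells ended in 7 of 22 alternatives and that against CD45RBlow cells in 15 of 22, 10 of them the removal of 1 array. Slc35d3 averaged 3.57 ± 0.23 in Treg (SD, n = 3), 3.23 ± 0.07 in CD45RBlow and 3.27 ± 0.02 in CD45RBhigh cells (SD, n = 4 each), below the first quartile of all values in each population. Its calls, at adjusted p = 0.0437 and 0.0316, ended in 15 of 21 and 9 of 21 alternatives, of which 10 and 5 were the removal of 1 array. Without Treg replicate 1 the values were 0.18 (adjusted p = 0.133) and 0.21 (adjusted p = 0.0933).

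The genes with the pattern most like that of each called transporter were taken from 962 other named probe sets by the root mean square difference over the 11 arrays, each centred on its own mean. Nearest to Slc35d1 were Igf2r, the receptor for mannose 6-phosphate, at 0.33, Tgfbr1, a TGF-beta receptor chain, at 0.36, and the growth factor gene Csf1 at 0.37. The spread of Slc35d1 around its own mean was 0.65. Nearest to Slc35a5, with a spread of 0.35, were Pecam1, an adhesion molecule, at 0.13, the RNA-binding protein gene Igf2bp2 at 0.16 and Galnt11, which starts O-glycans, at 0.17. Nearest to Slc35b3, with a spread of 0.22, were the cohesin gene Smc3 at 0.092, Smim7 at 0.11 and Psap, the precursor of lysosomal saposins, at 0.11. These distances describe the arrays and were not tested.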

How the data were processed

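The values are log2 expression per probe set, which the authors made with Robust Multichip Average (RMA), per the submitters' processing notes. RMA corrects background, equalises distributions across arrays and summarises probes, so levels are relative within this series. Its version and the genome build are not given in the sources used here. RNA extraction is given as Trizol in the sample labels but as a column kit in the design text. The deposited table holds 1246 probe sets, with values of 1.99 to 14.2, and was not rescaled or filtered. RefSeq accessions, with version and suffix dropped, named 963 probe sets and 909 genes, and 283 stayed unnamed. For a gene with several probe sets, the one with the highest mean over all 11 arrays was used.

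In limma 3.58.1 (R 4.3.3), each population got 1 mean per probe set, from all 11 arrays (prior degrees of freedom 2.87, residual 8). The two-sided p-values were adjusted by Benjamini-Hochberg in each comparison across 1246 probe sets, with a threshold of 0.05. The script was tested on simulated data. Same-numbered arrays deviated together from their population means (10 pairs, correlation 0.31 to 0.56, median 0.46, against 0.28 for other numbers of the same replicate set). Blocking on the number is therefore reported where the call of a transporter or of a list gene called without it changes. For the other donor genes, some of which passed only with the block, it is given by counts. Alternatives were a fixed or random replicate block, the replicate set as covariate or alone, fewer arrays, other scalings, a filter on dim probe sets, other moderation and the other probe set.

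The text names the 10 transporters, list genes past the threshold, some uncalled genes of the same donor routes and the 3 genes nearest to each called transporter. Members, lists and rules were chosen with earlier results of these data known. Probe sets for Golgi nucleotidases (4 gene names) were not analysed here. Figures were drawn with matplotlib 3.10.9.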

Additional observations from a re-analysis of the deposited data

Results flagged for a closer look

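Slc35a1 read 8.76 in CD45RBhigh replicate 4, against 8.36, 8.37 and 8.42 in the other CD45RBhigh arrays. That gap is 0.853 of the whole range, above Dixon's 95% critical value for 4 samples. It was the only such array in 22 groups of 4 values examined, and chance alone marks about 1 in 20 of such groups. The cause was not tested. The same array was the highest of its population for 6 of the 10 transporters, and so was Treg replicate 1 among the 3 Treg arrays. The share of all probe sets on which each array was highest was not computed. For Treg replicate 1 the median deviation from the population means was 0.07 over the transporters and -0.0037 over all probe sets. For CD45RBhigh replicate 4 the median deviation from the population means was 0.18 over the transporters and -8.9e-05 over all probe sets. The median of this array over all probe sets, 4.86, lay within the range of the other arrays.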

How the results depend on the processing

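Of 663 recomputed values of the transporters 642 kept their side of the threshold, 15 lost and 6 gained a call, and 0 called values changed sign; 35 values that were not called did. The 15 losses were 12 for Slc35b3 (Treg against CD45RBhigh), 2 for Slc35d1 and 1 for Slc35a5, these 3 in fits of replicate sets alone. Within replicates 3 and 4 alone, with 1 Treg array assumed to vary like the other groups, 88 probe sets were called for Treg against CD45RBhigh cells, 49 for Treg against CD45RBlow cells and 63 for CD45RBlow against CD45RBhigh cells, beside 235, 156 and 157 with all arrays, and the transporters called were 1 and 0 in the first and second of these, beside 3 and 1. In limma 0 transporters were also called within replicates 1 and 2 alone between CD45RBlow and CD45RBhigh cells, beside 1. The replicate block raised the probe sets called to 330, 245 and 271, and the replicate set as a covariate gave 238 and 247 in the last pair. With the block, fixed or random, or that covariate, 2 transporters were called between CD45RBlow and CD45RBhigh cells, Slc35a5 and Slc35b3. Leaving out 1 array gave 164 to 227, 110 to 162 and 113 to 151 probe sets, and 2 to 3, 1 to 1 and 1 to 2 transporters; the count of 2 in the last came without CD45RBhigh replicate 3, where Slc35b3 passed at -0.41 (adjusted p = 0.0276). The block changed no other transporter call than those given. The small number of arrays limits what could be called, and without detection calls the signal over background of Slc35a5 and Slc35a3 is unknown.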
